A study of Mus musculus with 36 samples.

Results

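The chitinase-like and resistin-like genes Chil1, Chil3, Chil4, Chia1, Chit1, Retnla and Retnlg were followed in mouse lung across a severe asthma model. These 7 genes were taken by name, with every probe set that the platform annotation gives them, out of 18193 genes named on the array. Of the 7 listed genes, 6 had 1 probe set of their own, and 1 further probe set was shared by Chil3 and Chil4. No probe set is named for Retnlg, which was not analysed here. A gene was tested where its log2 value passed 5 in at least 3 of the 36 arrays, as 11599 genes did, and 5 of the 7 listed genes did so. Chil4 passed through its ovalbumin arrays alone, and Chit1 did not pass.

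RNA from 36 lung samples was read on Affymetrix mouse expression arrays with 1 dye, and the deposited values are log2 signals made with GCRMA. All mice were labelled as age-matched females. Mice were given ovalbumin (OVA), a chicken egg protein used as an allergen, by intraperitoneal injection of 50 µg in a volume of 0.1 ml, 3 times, on days 1, 4 and 7, and then from day 12 through the nose, 20 µg in 30 µl each week for 9 weeks. The carrier was phosphate-buffered saline (PBS), which control mice had alone by the same routes and times. The 5 kinds of mice were WT (C57BL/6 wild type), KitWsh, and KitWsh mice with the engraftment label MC, MCifngR or MCigeR. KitWsh mice carry the sash allele at Kit, backcrossed for more than 10 generations, and lack mast cells. The allele also alters other blood cells, and all engrafted mice carry it too. The genotype label of KitWsh_MCigeR mice further names FcεRIγ-/-, and the labels do not say whether this is the donor cells' or the recipients' genotype. The labels use these engraftment codes without expanding them, and they are kept as codes. There were 4 arrays in WT PBS and in every OVA group, and 3 in the remaining PBS groups. Nothing in the labels ties samples to separate animals, so a p-value compares a difference with the spread between these samples only, which may be technical.

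Several arrays stood apart. KitWsh_MCigeR PBS array 2 had a median Pearson r with the other arrays of 0.543 across genes, against 0.882 to 0.971 for the other 35, the lowest of which was KitWsh_MC OVA array 2. Its beta-actin control probes read 8.43 log2 units more at the 3' than at the 5' end, a gap that is larger in degraded RNA, against 1.17 to 6.23 elsewhere, with 6.23 in KitWsh_MC OVA array 2 and 4.81 in KitWsh_MCifngR OVA array 1. Y-linked transcripts passed log2 5 in 3 arrays of mice labelled female, which were those labelled WT OVA array 4 and KitWsh_MCifngR OVA arrays 2 and 3. Kit, the gene of the sash allele, was at 9.86 to 10.97 in the other 7 arrays labelled WT, at 6.90 in the one labelled WT OVA array 4 and at 4.52 to 7.52 in all other arrays, so that this array went against its label. Array names below are those of the labels. Results are given for all 36 arrays and without KitWsh_MCigeR PBS array 2, which enters the error of every comparison through the shared model. Where calls changed, values follow without 4 arrays, namely that one and the 3 with Y-linked RNA. Those fits keep KitWsh_MC OVA array 2 and KitWsh_MCifngR OVA array 1. The lung markers Scgb1a1 (club cells), Sftpc (alveolar type 2 cells) and Ager (alveolar type 1 cells) were at least at 15.4, 12.5 and 14.1 in every array.

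Chitinase-like proteins of this family hold the fold of a chitin-degrading enzyme. Chia1 (acidic mammalian chitinase) and Chit1 (chitotriosidase) cut chitin, while Chil1 (BRP-39), Chil3 (Ym1) and Chil4 (Ym2) bind sugars without known chitinase activity. Retnla (RELMα or FIZZ1) and Retnlg are small secreted cysteine-rich proteins related to resistin. In lung, Chil3 is made by alveolar macrophages, and Chil4, Chia1 and Retnla are known as products of airway epithelium or macrophages exposed to the type 2 cytokines interleukin 4 (IL-4) and interleukin 13 (IL-13), which act through the transcription factor STAT6.

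The genes lie in 3 clusters of the mouse genome (RefSeq, GRCm38.p6). Chia1 (chr3:106113382-106132118), Chil3 (chr3:106147554-106167564) and Chil4 (chr3:106201491-106219479) are neighbours on chromosome 3, with 15435 bases between Chia1 and Chil3 and 33926 between Chil3 and Chil4. Chil1 (chr1:134182156-134190031) and Chit1 (chr1:134111242-134151541) lie together on chromosome 1. Retnla (chr16:48842609-48844461) and Retnlg (chr16:48872608-48874498) lie together on chromosome 16. The 250 bases before the annotated start are shown for the 3 genes whose levels are described most closely below, because Chil4 was near the floor in unchallenged lung and Chil3 was not, although most of these bases are the same, and because the values of Retnla were most like those of Chil4 across arrays. They are written 5′ to 3′ on the strand of the gene, with matches to the STAT and C/EBP letter patterns in capitals.
Retnla, chr16:48842359-48842608, plus strand: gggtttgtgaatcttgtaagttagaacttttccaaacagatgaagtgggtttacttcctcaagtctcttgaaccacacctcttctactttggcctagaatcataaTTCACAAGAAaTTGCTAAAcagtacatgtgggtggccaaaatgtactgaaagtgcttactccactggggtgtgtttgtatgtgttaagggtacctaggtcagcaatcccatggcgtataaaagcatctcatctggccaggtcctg
Chil3, chr3:106167565-106167814, minus strand: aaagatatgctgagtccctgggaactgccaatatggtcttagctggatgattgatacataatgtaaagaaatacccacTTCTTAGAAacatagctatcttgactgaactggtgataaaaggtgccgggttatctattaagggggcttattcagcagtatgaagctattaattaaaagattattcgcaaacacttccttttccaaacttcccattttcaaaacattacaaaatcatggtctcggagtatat
Chil4, chr3:106219480-106219729, minus strand: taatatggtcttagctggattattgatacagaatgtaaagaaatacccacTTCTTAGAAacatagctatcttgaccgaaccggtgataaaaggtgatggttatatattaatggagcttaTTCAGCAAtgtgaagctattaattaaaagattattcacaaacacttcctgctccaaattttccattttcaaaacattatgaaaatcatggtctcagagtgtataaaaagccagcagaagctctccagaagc

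Both strands were searched for TTC and GAA with 4 bases between them, the spacing known for STAT6, for TTC and GAA with 3 bases between them, a spacing shared by several STAT factors, and for TTGC, 2 bases and AA, part of the C/EBP pattern. Of 32851 promoters in the same table, 5.85%, 7.02% and 9.56% held such a match in the 250 bases before the start. Retnla held TTCACAAGAA from 145 to 136 bases before its start and the C/EBP pattern from 134 to 127 bases before it, next to but not overlapping the first. Chil3 and Chil4 held the same 9 letters of the 3-base spacing, TTCTTAGAA, 172 and 200 bases before their annotated starts. Chil4 also held the C/EBP pattern on the other strand, from 131 to 124 bases before its start. A local alignment of these Chil3 and Chil4 bases covered 220 aligned positions, of which 201 were identical (91.4%). Retnlg held a 4-base spacing match, TTCACAGGAA, 72 bases before its start, and 138 of 175 aligned positions (78.9%) were identical between Retnla and Retnlg. The letters of the searched STAT patterns were not in the same window of Chil1, Chia1 or Chit1. A match describes the letters and is not a measurement of binding.

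Across the 5 kinds of mice, OVA-challenged lungs held more RNA of all 5 tested genes than PBS lungs. The mean of the 5 responses, as a log2 difference, was 6.50 ± 0.56 (SE) for Chil4, whose PBS values were all under the filter, 2.20 ± 0.40 for Chia1, 2.19 ± 0.25 for Retnla, 1.51 ± 0.18 for Chil3 and 0.97 ± 0.20 for Chil1. The limma adjusted p-values were 2.15e-08, 4.66e-04, 2.74e-06, 4.36e-06 and 0.00117, adjusted over all 11599 genes by Benjamini-Hochberg, and a gene is called here where this value is under 0.05. With the PBS level of Chil4 set to the filter of 5, its mean response was at least 4.27, and this gene was tested only because of its OVA arrays. So 5 of the 7 listed genes rose in the mean response, 4 of them above the filter in PBS arrays too (Chia1 in all but 1), where 8.79% of all tested genes did, and the median difference was 2.19 for the 5 and 0.06 for all tested genes. When KitWsh_MCigeR PBS array 2 was left out, the 5 differences were 6.52, 1.73, 2.10, 1.37 and 0.77, all called, and the background was 12.2%. In whole lung, fewer cells of a type and less RNA per cell cannot be told apart.

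**Figure D1:**
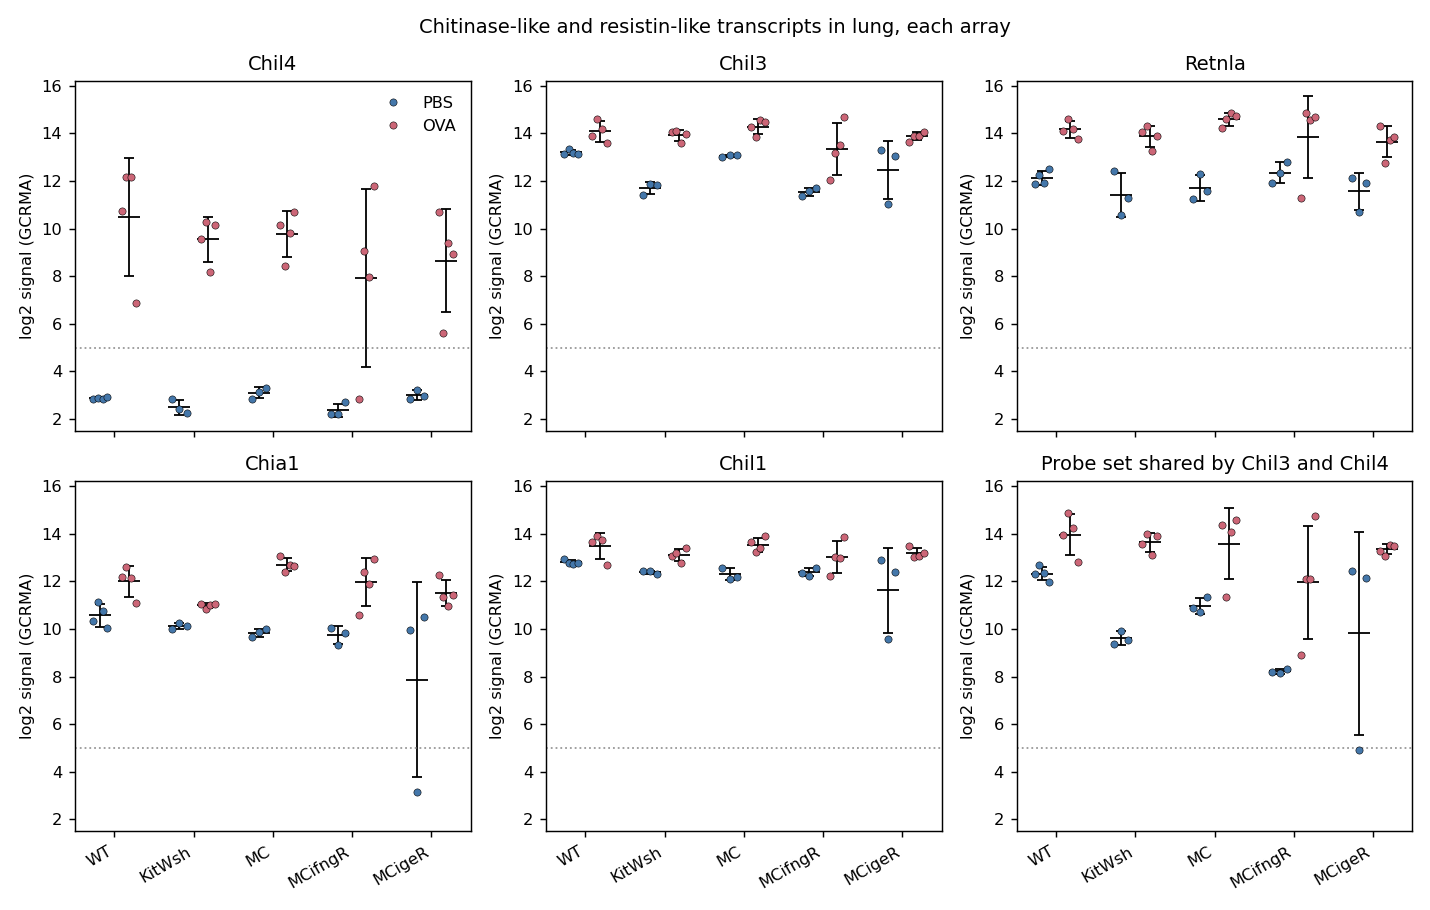
Log2 signal of 5 genes and of the probe set shared by Chil3 and Chil4, in each of the 36 arrays, by kind of mouse (MC, MCifngR and MCigeR are engrafted KitWsh mice) and exposure. Circles are arrays, black lines the mean ± SD of a group and the dotted line the log2 value of 5 used as the filter. Chil4 lies under 4 in every PBS array and over 5 in 19 of 20 OVA arrays.

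Chil4, a chitinase-like lectin, went from background to a high level in nearly every challenged lung. In PBS lungs its log2 values lay between 2.20 and 3.32 in all 16 arrays, near the lowest value of 2.19 in the whole table. In WT OVA lungs they were 10.72, 12.16, 12.16 and 6.89, and in KitWsh OVA lungs 9.55, 10.28, 8.20 and 10.15. In KitWsh_MC OVA lungs they were 10.14, 8.45, 9.82 and 10.68, and in KitWsh_MCigeR OVA lungs 10.68, 5.61, 9.38 and 8.92. The KitWsh_MCifngR OVA arrays spread most, with 2.86, 9.07, 7.97 and 11.79. Only that first KitWsh_MCifngR array lay at the level of PBS lungs. Its 2.86 was above the highest KitWsh_MCifngR PBS array (2.70), but both are near the floor, where values have no order. Within each of the other kinds of mice, OVA and PBS arrays did not overlap.

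The Chil4 response was 7.60 ± 1.18 in WT mice (adjusted p = 0.00171 by limma), 7.04 ± 1.27 in KitWsh (0.0160), 6.66 ± 1.27 in KitWsh_MC (0.00178), 5.56 ± 1.27 in KitWsh_MCifngR (0.0666) and 5.63 ± 1.27 in KitWsh_MCigeR (0.0443). Since every PBS array lay under log2 5, the fold is a lower bound, the mean of the OVA arrays against 5, and was at least 44.7-fold in WT, 23.3-fold in KitWsh, 27.4-fold in KitWsh_MC, 7.58-fold in KitWsh_MCifngR and 12.5-fold in KitWsh_MCigeR. The calls in WT and KitWsh_MC mice held when any 1 array of those groups was left out. Without KitWsh_MCifngR OVA array 1, the KitWsh_MCifngR difference was 7.25 and was called (adjusted p = 4.90e-04). In the fit of 35 arrays, without KitWsh_MCigeR PBS array 2, the KitWsh_MCigeR difference was 5.74 and was not called (0.324), while that of KitWsh_MCifngR was (0.0310). The 4 OVA arrays still lay above both remaining PBS arrays.

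Retnla, a secreted resistin-like protein, was already abundant in PBS lungs. Its values were 11.86, 12.23, 11.94 and 12.51 in WT PBS and 14.08, 14.62, 14.19 and 13.77 in WT OVA lungs. KitWsh PBS lungs had 12.41, 10.59 and 11.28 and KitWsh OVA lungs 14.04, 14.32, 13.25 and 13.90. KitWsh_MC PBS lungs had 11.23, 12.29 and 11.58 and KitWsh_MC OVA lungs 14.22, 14.61, 14.84 and 14.72. Challenged and unchallenged arrays of these 3 kinds did not overlap. In KitWsh_MCifngR mice the PBS arrays had 11.94, 12.32 and 12.80 and the OVA arrays 11.28, 14.84, 14.56 and 14.70, so that OVA array 1 lay below all PBS arrays. KitWsh_MCigeR mice had 12.13, 10.69 and 11.91 with PBS and 14.30, 12.75, 13.72 and 13.83 with OVA, again without overlap.

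The Retnla response was 4.08-fold in WT (log2 2.03 ± 0.52, limma adjusted p = 0.0441), 5.46-fold in KitWsh (2.45 ± 0.56, 0.0403) and 7.45-fold in KitWsh_MC mice (2.90 ± 0.56, 0.00204). It was 2.81-fold in KitWsh_MCifngR mice and missed the threshold (1.49 ± 0.56, 0.572), and 4.22-fold in KitWsh_MCigeR mice (2.08 ± 0.56, 0.0458). The KitWsh_MC call held whichever of its arrays was left out, but the WT call was lost without any 1 of WT OVA arrays 1, 2 and 3 or WT PBS arrays 1, 2 and 3 (adjusted p 0.0986 to 0.175). Without KitWsh_MCifngR OVA array 1 the KitWsh_MCifngR difference was 2.35 and was called (0.00290). In the fit of 35 arrays the KitWsh_MCigeR difference was 1.63 and was not called (0.648).

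Chil3, a chitinase-like lectin of alveolar macrophages, rose from a high level. WT PBS lungs had 13.15, 13.35, 13.17 and 13.13 and WT OVA lungs 13.89, 14.62, 14.21 and 13.61. KitWsh PBS lungs had 11.42, 11.87 and 11.81 and KitWsh OVA lungs 14.07, 14.09, 13.59 and 13.96. KitWsh_MC PBS lungs had 13.02, 13.09 and 13.09 and KitWsh_MC OVA lungs 14.27, 13.86, 14.55 and 14.47. The 3 kinds of mice reached OVA values that overlapped, from PBS values that did not overlap. KitWsh_MCifngR mice had 11.36, 11.57 and 11.71 with PBS and 12.03, 13.19, 13.51 and 14.69 with OVA. KitWsh_MCigeR mice had 13.31, 11.06 and 13.04 with PBS and 13.66, 13.89, 13.89 and 14.07 with OVA. OVA arrays lay above PBS arrays in each of the 5 kinds.

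The Chil3 response was 4.69-fold in KitWsh mice (log2 2.23 ± 0.41, limma adjusted p = 0.0164) and 2.65-fold in KitWsh_MCigeR mice (1.41 ± 0.41, 0.0458). It did not pass in WT (0.88 ± 0.38, 0.245), KitWsh_MC (1.22 ± 0.41, 0.0711) or KitWsh_MCifngR mice (1.81 ± 0.41, 0.0666). When KitWsh_MCigeR PBS array 2 was left out, the adjusted p was 6.87e-04 in KitWsh, 0.00953 in KitWsh_MC and 0.00380 in KitWsh_MCifngR mice, and the KitWsh_MCigeR response was 0.70 and not called (0.822). The response of KitWsh mice was larger than that of WT mice by 1.35 ± 0.56 on the log2 scale, which did not pass the test of the difference (0.637, and 0.153 without that array).

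Chia1, the acidic mammalian chitinase, is an active enzyme of airway epithelium. WT PBS lungs had 10.34, 11.13, 10.74 and 10.06 and WT OVA lungs 12.16, 12.62, 12.12 and 11.09. KitWsh PBS lungs had 10.00, 10.25 and 10.11 and KitWsh OVA lungs 11.05, 10.86, 11.01 and 11.04. KitWsh_MC PBS lungs had 9.67, 9.88 and 10.00 and KitWsh_MC OVA lungs 13.04, 12.40, 12.70 and 12.65. OVA arrays lay above PBS arrays in the last 2 of these kinds and overlapped by 1 array in WT mice. KitWsh_MCifngR mice had 10.04, 9.31 and 9.84 with PBS and 10.60, 12.38, 11.91 and 12.95 with OVA. KitWsh_MCigeR mice had 9.96, 3.16 and 10.50 with PBS and 12.26, 11.35, 10.98 and 11.43 with OVA, the value of 3.16 being that of PBS array 2.

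With all arrays, the Chia1 response was called in KitWsh_MCigeR mice (log2 3.63 ± 0.90, limma adjusted p = 0.0443), where it rests on PBS array 2. It was 2.85 ± 0.90 in KitWsh_MC (0.0520), 2.23 ± 0.90 in KitWsh_MCifngR (0.680), 1.43 ± 0.83 in WT (0.443) and 0.86 ± 0.90 in KitWsh mice (0.812). Without PBS array 2 the SE of the first 3 of these 4 was 0.37, 0.37 and 0.34, and the responses of KitWsh_MC (2.81e-05), KitWsh_MCifngR (0.00161) and WT mice (0.0119) were called. Those of KitWsh mice (0.142) and of KitWsh_MCigeR mice (1.27 ± 0.42, 0.627) were not.

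Chil1, a chitinase-like lectin made by macrophages and epithelium, had the smallest mean response of the 5 tested genes. WT PBS lungs had 12.92, 12.79, 12.73 and 12.77 and WT OVA lungs 13.66, 13.90, 13.72 and 12.69. KitWsh PBS lungs had 12.43, 12.42 and 12.31 and KitWsh OVA lungs 13.08, 13.20, 12.76 and 13.39. KitWsh_MC PBS lungs had 12.58, 12.12 and 12.19 and KitWsh_MC OVA lungs 13.64, 13.24, 13.39 and 13.88. Only WT OVA array 4 did not lie above the PBS values of its kind. KitWsh_MCifngR mice had 12.35, 12.24 and 12.57 with PBS and 12.20, 13.01, 13.00 and 13.88 with OVA, overlapping through OVA array 1. KitWsh_MCigeR mice had 12.89, 9.60 and 12.38 with PBS and 13.50, 13.02, 13.05 and 13.21 with OVA. The Chil1 response was 1.24 ± 0.44 in KitWsh_MC mice and passed only without KitWsh_MCigeR PBS array 2 (limma adjusted p = 0.0907 with it and 0.00186 without it). In KitWsh_MCigeR mice it was 1.57 ± 0.44 and called with that array (0.0458), and 0.56 and not called without it (0.828). In WT (0.69), KitWsh (0.72) and KitWsh_MCifngR mice (0.64) it was called in neither fit.

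Chit1, the macrophage chitinase, lay between 2.82 and 4.89 in all 36 arrays, under the filter, and has no order between groups. The probe set that Chil3 and Chil4 share rose by 3.11 ± 0.50 in the mean response (limma adjusted p = 2.02e-04 over 23091 probe sets).

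**Figure D2:**
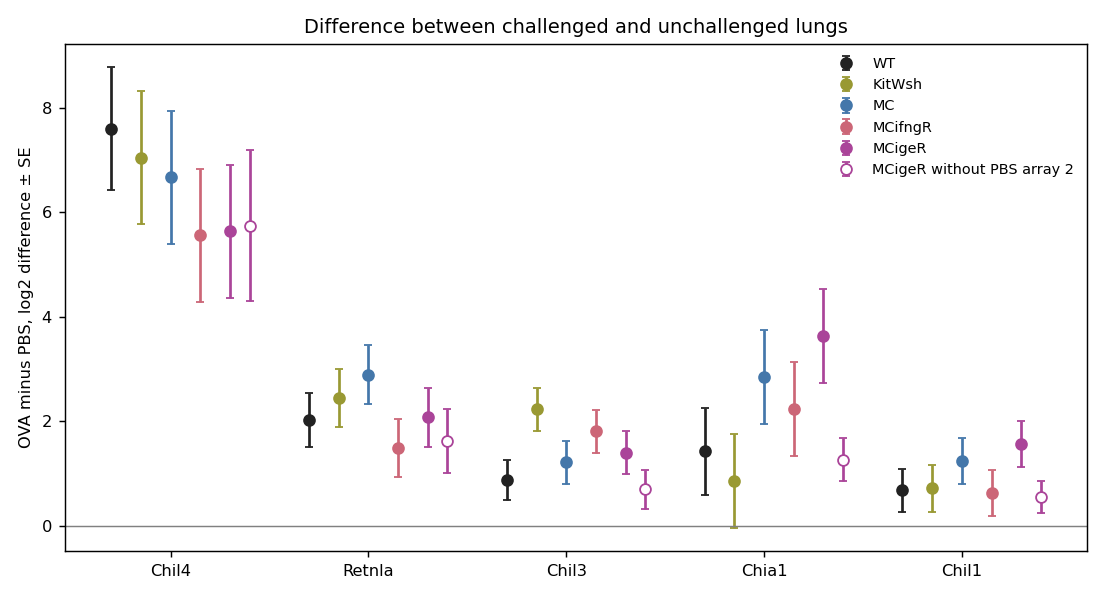
Log2 difference between OVA and PBS lungs for 5 genes in each kind of mouse, ± SE of the limma model. Open circles give the KitWsh_MCigeR response without PBS array 2, which moves Chia1 from 3.63 to 1.27 and Chil4 from 5.63 to 5.74.

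Counted by kind of mouse, 2 of the 7 listed genes rose in WT (Chil4 and Retnla), where 0.535% of tested genes rose, and 3 in KitWsh mice (these and Chil3), where 0.138% did. In KitWsh_MC mice 2 rose (Chil4 and Retnla) against 3.88% of all genes. In KitWsh_MCifngR mice 0 were called against 0.103%, although 4 of the 5 had an unadjusted limma p under 0.05, where 5.42% of all genes did. In KitWsh_MCigeR mice 5 rose against 16%. In the fit of 35 arrays the counts of called genes were 3 in WT (3.97%), 3 in KitWsh (1.4%), 5 in KitWsh_MC (10.7%), 3 in KitWsh_MCifngR (0.431%) and 0 in KitWsh_MCigeR mice (0%). Chil4 is among the genes of each of these counts other than 0. It was tested only because of its OVA arrays, so its part in the counts is a description. The kinds of mice share no arrays, but the fit shares 1 error between them, so 1 array moved every count except that of KitWsh mice. The 3 KitWsh calls were lost when KitWsh OVA array 2 or 4 or any 1 KitWsh PBS array was left out (adjusted p 0.0510 to 0.110 for Chil3, 0.0510 to 0.106 for Chil4 and 0.0771 to 0.239 for Retnla). The KitWsh_MCigeR calls were lost without OVA array 1, 2 or 4 or PBS array 2, and that of Chil3 also without OVA array 3 (adjusted p 0.0539 to 0.822 for Chil3 and at least 0.0801 for the others). WT OVA array 4, which held Y-linked RNA, had the lowest value of its group for Chil1, Chil3, Chil4, Chia1 and Retnla. Without that array alone, the WT responses were 8.80 for Chil4 and 2.16 for Retnla, both called, and 1.73 for Chia1, 1.04 for Chil3 and 0.96 for Chil1, not called (limma adjusted p = 9.61e-05, 0.0247, 0.309, 0.147 and 0.218). Without it, the KitWsh_MCifngR OVA arrays 2 and 3 and KitWsh_MCigeR PBS array 2, all 5 genes were called in WT mice (3.93e-05, 0.00552, 0.00205, 0.0306 and 0.00886), and Chil3 (0.0151) and Chia1 (0.00926) but not Chil4 (0.0636) in KitWsh_MCifngR mice. That fit left OVA arrays 1 and 4 in KitWsh_MCifngR mice.

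In unchallenged lungs Chil3 lay at 2 levels. WT and KitWsh_MC lungs lay between 13.02 and 13.35, and KitWsh and KitWsh_MCifngR lungs between 11.36 and 11.87, with no array between them. KitWsh_MCigeR PBS arrays 1 and 3 lay at the upper level, with 13.31 and 13.04, and array 2, the one that stood apart, lay below both levels with 11.06. The difference was -1.50 ± 0.41 for KitWsh minus WT (2.83-fold, limma adjusted p = 0.0672), 1.37 ± 0.44 for KitWsh_MC minus KitWsh (2.58-fold, 0.116) and -1.52 ± 0.44 for KitWsh_MCifngR minus KitWsh_MC (2.87-fold, 0.0528). None was called with all arrays, and all 3 were called without KitWsh_MCigeR PBS array 2 (0.00508, 0.0121 and 0.00465). The third of these comparisons was added after the values had been seen. The comparisons share the KitWsh and KitWsh_MC PBS arrays. The gap of the beta-actin probes also differed between these groups, in another order than Chil3. It was 1.17 to 1.77 in WT, 1.74 to 2.48 in KitWsh, 2.33 to 3.41 in KitWsh_MC and 3.60 to 4.19 in KitWsh_MCifngR PBS lungs. KitWsh_MCigeR PBS arrays 1 and 3 had 1.62 and 1.46. The part of this gap in the Chil3 levels was not tested.

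The shared probe set was ordered likewise, but with a further step. It had 12.0 to 12.7 in WT PBS lungs, 10.7 to 11.3 in KitWsh_MC, 9.36 to 9.93 in KitWsh and 8.14 to 8.33 in KitWsh_MCifngR PBS lungs, with no overlap between these neighbours. Its differences were -2.71 ± 1.13 for KitWsh minus WT, 1.36 ± 1.21 for KitWsh_MC minus KitWsh and -2.76 ± 1.21 for KitWsh_MCifngR minus KitWsh_MC (limma adjusted p = 0.252, 0.632 and 0.175). The first and the last were called once KitWsh_MCigeR PBS array 2 was left out (0.0280 and 0.0165), and the second was not (0.252). Chil4's own probe set stayed at 2.20 to 3.32 in these lungs, near the floor. How far the Chil3 and the shared probe sets also read Chil4 RNA was not tested.

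Cell type markers were read beside this. The alveolar macrophage list without Chil3 (6 genes on the array) summed to 11.5 to 11.9 in WT, 11.7 to 12.3 in KitWsh, 12.2 to 12.3 in KitWsh_MC and 12.1 to 12.4 in KitWsh_MCifngR PBS lungs, an order unlike that of Chil3. The recruited macrophage list (7 genes) summed to 11.3 to 11.6, 10.7 to 11.2, 11.5 to 11.6 and 10.8 to 11.2 in the same groups, low in the groups where Chil3 was low, and its part in the Chil3 levels was not tested. Siglecf, a surface lectin of alveolar macrophages and eosinophils and a gene of the first list, had 6.79 to 7.71 in WT, 5.04 to 5.94 in KitWsh, 6.86 to 6.96 in KitWsh_MC and 5.10 to 5.43 in KitWsh_MCifngR PBS lungs. It was singled out after its values were seen, so these are a description. Of the 7 tested genes of that list, Chil3 included, Siglecf alone was called in each of the 3 comparisons with all arrays. The log2 differences of KitWsh minus WT PBS lungs were -1.83 for Siglecf, -1.73 for Marco, -1.14 for Krt79, -0.68 for Pparg, -0.27 for Fabp4 and 0.79 for Car4. For KitWsh_MCifngR minus KitWsh_MC they were -1.68, 1.27, -0.82, -0.19, 0.34 and -0.06, so that the genes of the list did not move alike. The eosinophil genes Epx and Ccr3 did not pass the filter.

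**Figure D3:**
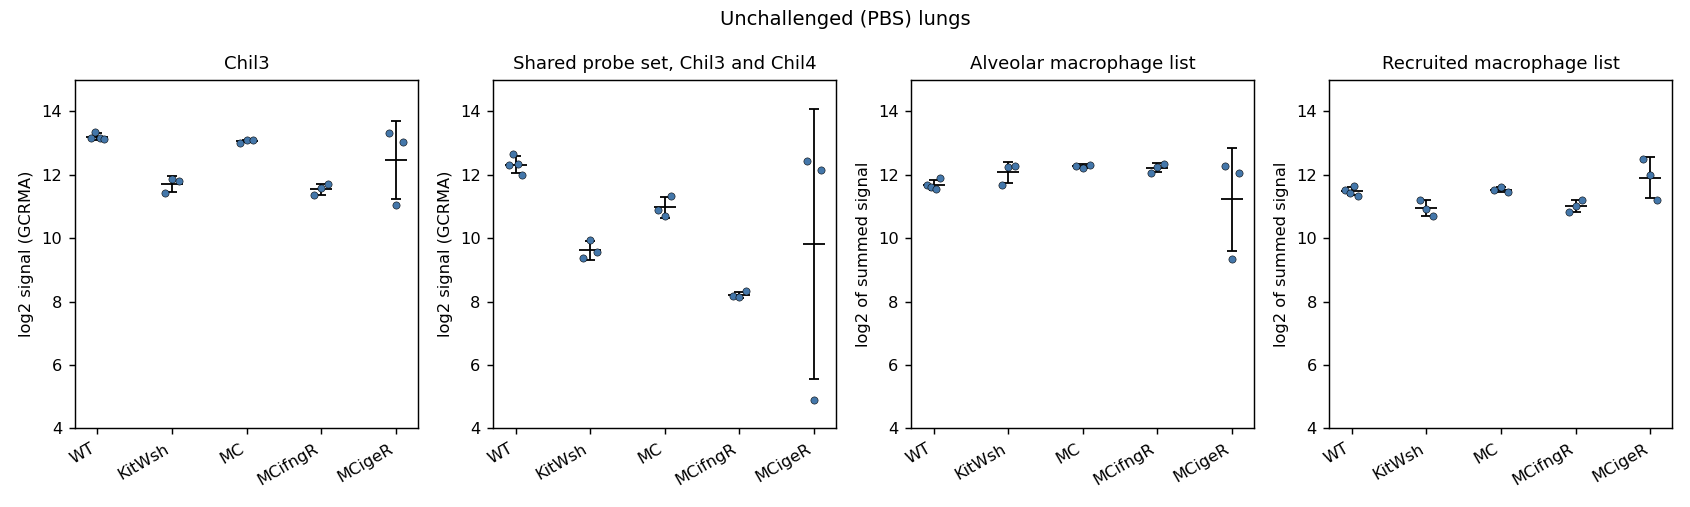
PBS lungs of each kind of mouse, with Chil3, the probe set shared by Chil3 and Chil4, and the log2 of the summed signal of the alveolar macrophage list (without Chil3) and of the recruited macrophage list. Circles are arrays and lines the mean ± SD. Chil3 lies at 11.36 to 11.87 in KitWsh and KitWsh_MCifngR and at 13.02 to 13.35 in WT and KitWsh_MC lungs, and the low circle in the MCigeR column of the first 3 panels is PBS array 2.

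Of the other genes, Chil1, Chil4, Chia1 and Retnla were called in none of the 3 unchallenged comparisons in either fit. So 0 of the 7 listed genes was called as lower in KitWsh than in WT PBS lungs, against 0.431% of all genes, 0 as higher in KitWsh_MC than in KitWsh, against 0.672%, and 0 as lower in KitWsh_MCifngR than in KitWsh_MC PBS lungs, against 1.26%. In each, 1 of the 5 tested genes (Chil3) had an unadjusted limma p under 0.05, as had 12.2%, 12.8% and 16.7% of all tested genes. In the fit of 35 arrays the count of called genes was 1 (Chil3) in each, against 2.29%, 3.35% and 3.28%.

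Among challenged lungs, Chia1 arrays of KitWsh mice lay apart from those of KitWsh_MC mice and, by a narrow gap, from those of WT mice. Its 4 KitWsh OVA arrays lay within 10.86 to 11.05, below all 4 WT arrays (11.09 to 12.62) and all 4 KitWsh_MC arrays (12.40 to 13.04). The gap was 0.03 to WT arrays, set by WT OVA array 4, which went against its label, and 1.35 to KitWsh_MC arrays. The difference between KitWsh_MC and KitWsh OVA lungs was 3.27-fold (log2 1.71 ± 0.83, limma adjusted p = 0.194), and without KitWsh_MCigeR PBS array 2, an array of neither group, its SE was 0.34 and it was called (6.69e-04). The beta-actin gap was 2.21 to 6.23 in KitWsh_MC and 1.29 to 2.62 in KitWsh OVA lungs, and its part was not tested. The Chia1 response itself was larger in KitWsh_MC than in KitWsh mice by 1.99 ± 1.27 on the log2 scale (0.611), called without that array (SE 0.52, 0.0254). Chia1 in KitWsh_MCigeR OVA lungs differed from KitWsh_MC OVA lungs by -1.19 ± 0.83 (0.469), called without the array (0.0152), and the groups did not overlap. The WT difference, KitWsh minus WT, was -1.01 ± 0.83 and was called in neither fit (1.00 and 0.240).

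Chil3 was lower in KitWsh_MCifngR than in KitWsh_MC OVA lungs by a log2 difference of -0.93 ± 0.38, called only without KitWsh_MCigeR PBS array 2 (limma adjusted p = 0.101 with it and 0.0164 without it), and the groups overlapped through KitWsh_MCifngR OVA array 4. Retnla was at 14.56 to 14.84 in 3 KitWsh_MCifngR OVA arrays and at 14.22 to 14.84 in the 4 KitWsh_MC OVA arrays. The difference of -0.75 ± 0.52 between these groups came to 0.10 without KitWsh_MCifngR OVA array 1. Without KitWsh_MCigeR PBS array 2 and the 3 arrays with Y-linked RNA, the Retnla difference was -1.61 and called (0.0309). That leaves KitWsh_MCifngR OVA arrays 1 and 4 alone in their group. This call therefore rests on array 1, where Retnla was at 11.28. The Chil3 difference was not called in that fit (0.0563). Between all KitWsh_MCifngR and KitWsh_MC OVA arrays, Chil4 differed by -1.85 ± 1.18 and Chil1 by -0.51 ± 0.41. Both were called neither with all arrays nor without KitWsh_MCigeR PBS array 2.

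With all arrays, 0 of the 7 listed genes was called as higher in KitWsh_MC than in KitWsh OVA lungs, against 5.46% of all genes, 0 as lower in KitWsh_MCifngR than in KitWsh_MC OVA lungs (2.77%), 0 as lower in KitWsh_MCigeR than in KitWsh_MC OVA lungs (1.64%) and 0 as lower in KitWsh than in WT OVA lungs (0.0604%). At an unadjusted limma p under 0.05 these were 1, 1, 0 and 0 of the 5 tested, against 25.3%, 28.5%, 18.3% and 4.89% of all tested genes. In the fit of 35 arrays the first 3 counts were 1 each (Chia1, Chil3 and Chia1), against 14.9%, 7.47% and 7.6%. For the difference of the responses, 0 was called as larger in KitWsh than in WT mice (0.00862% of all genes), 0 as larger in KitWsh_MC than in KitWsh mice (0.397%) and 0 as smaller in KitWsh_MCifngR than in KitWsh_MC mice (0.0172%). The unadjusted counts were 1, 0 and 0, against 6.74%, 11.6% and 10.1% of all tested genes. Without the array the second of these counts was 1 (Chia1, 4.17%).

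Other genes of the 2 families were read from a list of 8, of which 5 were on the array and 4 were tested. In the mean response Chid1, a chitinase-domain protein, rose by 0.68 ± 0.13 (limma adjusted p = 8.25e-04), while Ctbs and Ovgp1 were not called. The Chid1 group mean was higher in OVA than in PBS lungs of every kind except KitWsh (6.99 and 7.03). The difference was largest in KitWsh_MC mice (8.42 and 6.98). Retnlb, the resistin-like protein known from goblet cells, passed the filter only through 3 KitWsh_MC OVA arrays, and its values are a description. It had 2.57, 6.98, 6.89 and 5.32 in KitWsh_MC OVA lungs. The WT OVA lungs had 2.29, 3.53, 3.96 and 2.19, and it lay at or under 3.80 elsewhere, with all PBS arrays and all 4 KitWsh OVA arrays at the floor of 2.19. Chid1 was at 7.67 to 8.98 in KitWsh_MC and 6.60 to 7.36 in KitWsh OVA lungs (1.43 ± 0.28, 0.00194). These were the highest and the lowest OVA group means, as for Chia1, but the groups between them had another order.

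**Figure D4:**
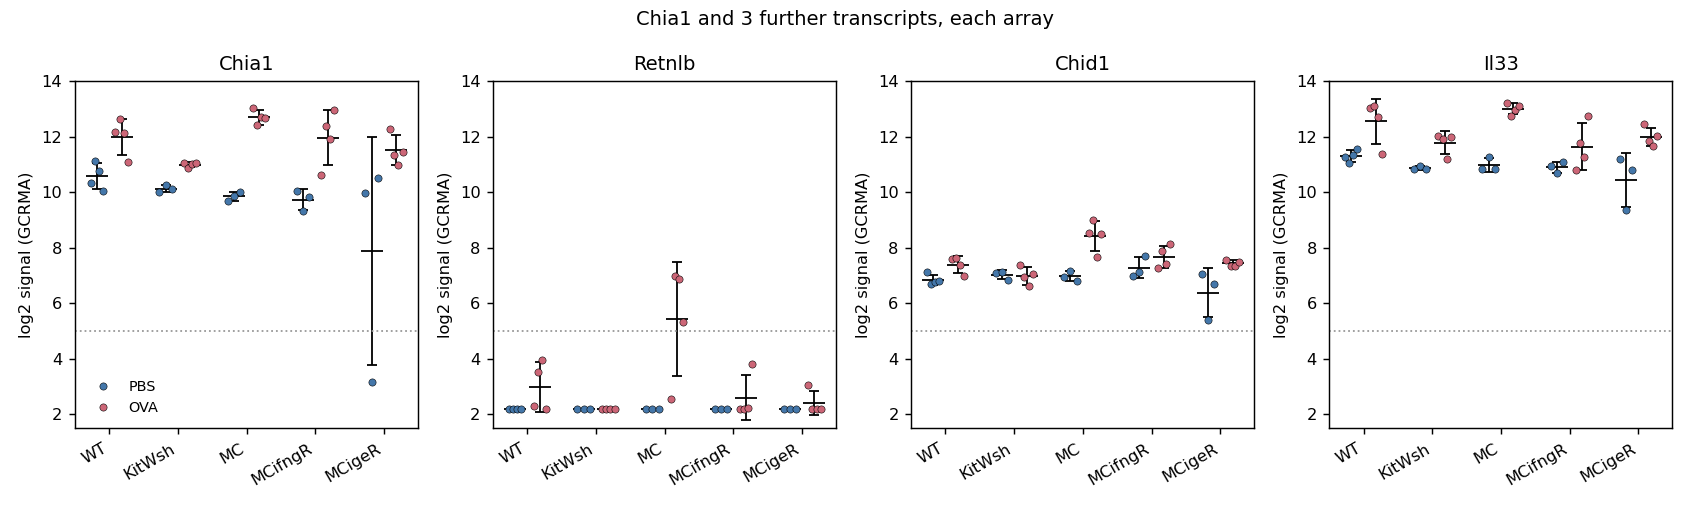
Log2 signal of Chia1, Retnlb, Chid1 and the cytokine gene Il33 in each array, by kind of mouse and exposure, with mean ± SD and the filter at log2 5 as a dotted line. In OVA lungs KitWsh_MC arrays are above all KitWsh arrays for Chia1, Chid1 and Il33, and Retnlb passes the dotted line in 3 KitWsh_MC arrays.

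Of 7 genes for reported binding partners of chitinase-like proteins, 5 were tested and 2 rose in the mean response (8.79% of all tested genes did), Cd44, a hyaluronan receptor, by 0.65 ± 0.14 (limma adjusted p = 0.00219), and Lgals3, galectin 3, by 0.82 ± 0.16 (7.50e-04). Without KitWsh_MCigeR PBS array 2, Cap1, a reported resistin receptor, also fell by 0.88 (0.0114, and 0.0813 with all arrays), where 15.3% of all tested genes fell. Il13ra2 and Ptgdr2 did not pass the filter. Of 12 genes of the IL-4, IL-13 and IL-33 axis, 11 were on the array and 5 were tested, because Il4, Il13, Il5, Il25, Il13ra2 and Il5ra did not pass the filter. Il33, an epithelial alarm cytokine, rose by 1.30 ± 0.17 (1.75e-05) and Tslp, another of this kind, fell by 0.71 ± 0.14 (9.11e-04). Of 12 other genes of macrophages exposed to type 2 cytokines, 9 were tested, 5 rose and 0 fell, with a median difference of 0.77 against 0.06 for all genes. Arg1 (arginase 1) rose by 3.11 ± 0.38, Ccl8, a chemokine, by 2.86 ± 0.38 and Mrc1 (CD206) by 1.28 ± 0.26, while Ccl17 (0.22 ± 0.17) and Ccl22 (0.21 ± 0.16) were not called. Arg1 lay under the filter in every PBS array (at most 4.18) and in every KitWsh OVA array (at most 4.23). It was tested only because of OVA arrays of the other kinds, so its difference and its part in the count are a description.

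Some but not all markers of the cells that could hold these RNAs moved with the challenge too. In the mean response 8.79% of all tested genes rose and 7.8% fell. Of 10 goblet cell genes 9 were tested and 9 rose, with Clca1 at 6.96 ± 0.78 and Slc26a4 at 4.14 ± 0.46. In single PBS groups 4 to 6 of the 10 passed log2 5 in any array, against 8 or 9 in OVA groups. A gene that passed the filter through OVA arrays alone could hardly be called as lower, so this count is a description. The list's summed signal was 8.67 to 10.1 in WT PBS and 11.3 to 14.8 in WT OVA lungs, and 8.99 to 14.8 in KitWsh_MCifngR OVA lungs. Of 9 recruited macrophage genes 7 were tested and 5 rose (C1qa and Ccr2 were not called), and the summed signal was 11.3 to 11.6 in WT PBS and 11.0 to 13.3 in WT OVA lungs. In each PBS group 6 of these 7 passed log2 5 in any array, against 7 in each OVA group. Of 9 alveolar macrophage genes 7 were tested and 3 rose, of which Chil3 is 1, beside Marco and Fabp4. Of 6 club cell genes 6 were tested and 0 were called, with an unadjusted limma p under 0.05 for Scgb1a1 and Scgb3a1. Without KitWsh_MCigeR PBS array 2, 1 club cell gene rose and 3 fell, against 12.2% and 15.3% of all tested genes. The part of any of these lists in the levels of the chitinase-like and resistin-like genes was not tested.

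Among the 35 arrays without KitWsh_MCigeR PBS array 2, the tested genes most like each gene were found by Pearson's r over the log2 values. For Chil4 they were Scin (0.938), Fer1l6 (0.936) and Clca1 (0.926), a goblet cell gene. For Retnla they were Chil4 (0.912), Fer1l6 (0.901) and Clca1 (0.894). For Chia1 they were Slc26a4 (0.924), an anion exchanger, Ms4a6d (0.916) and Il33 (0.883). For Chil3 they were the chemokine gene Ccl6 (0.906), Olr1 (0.892), a scavenger receptor, and Cd200r4 (0.865), and for Chil1 they were Tfec (0.947), Lcn2 (0.944), lipocalin 2, and Ccl6 (0.939). These r are descriptions. The arrays share the challenge, and they fall into OVA and PBS arrays, within which r was lower.

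Within the 20 OVA arrays r was 0.842, 0.848 and 0.901 for the 3 genes most like Chil4, and 0.854, 0.885 and 0.814 for those most like Chia1. Within the 15 PBS arrays, where Chil4 was near the floor, its r with the same genes was 0.20, -0.29 and -0.06. Chil3 kept values of 0.811, 0.888 and 0.850 with Ccl6, Olr1 and Cd200r4 within PBS arrays, and Chil1 kept 0.845, 0.832 and 0.705 with Tfec, Lcn2 and Ccl6. Between pairs of the 5 genes r ran from 0.747 (Chil3 and Retnla) to 0.912 (Chil4 and Retnla) over 35 arrays. Within OVA arrays the 10 pairs ran from 0.542 (Chil3 and Chia1) to 0.891 (Chil1 and Chil4). Within PBS arrays they ran from -0.09 (Chia1 and Retnla) to 0.754 (Chil3 and Chil4, the latter near the floor).

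**Figure D5:**
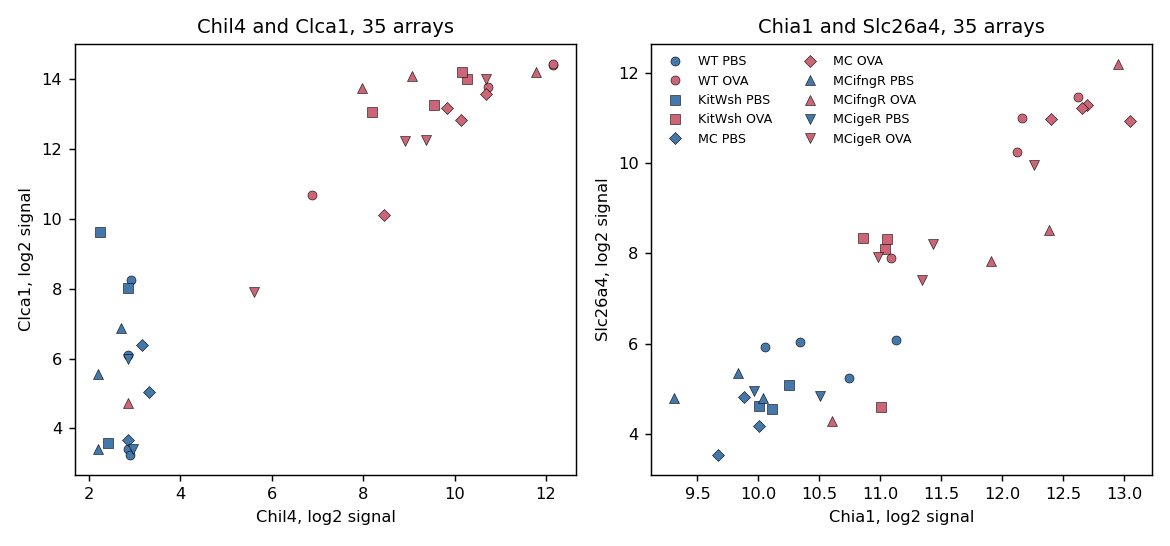
Chil4 against Clca1 and Chia1 against Slc26a4, as log2 signal in each of 35 arrays, with the shape giving the kind of mouse and the colour the exposure. The pooled r are 0.926 and 0.924, and Chil4 lies between 2.20 and 3.32 over PBS arrays, where Clca1 ranges more widely.

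In the order of group means, Chil4 and Retnla had all 5 OVA groups above all 5 PBS groups, as did Chil1, Chil3 and Chia1. Neighbours in that order overlapped in their arrays, except WT and KitWsh_MC PBS lungs for Chil3, KitWsh and KitWsh_MC PBS lungs for Chia1, and WT and KitWsh_MCifngR PBS lungs for Chil1. For Chia1 the OVA groups ran from KitWsh_MC (12.70 ± 0.26, SD) through WT (12.00 ± 0.65), KitWsh_MCifngR (11.96 ± 1.00) and KitWsh_MCigeR (11.50 ± 0.54) to KitWsh (10.99 ± 0.09). For Chil3 they ran from KitWsh_MC (14.29 ± 0.31) through WT (14.08 ± 0.44), KitWsh (13.93 ± 0.23) and KitWsh_MCigeR (13.88 ± 0.17) to KitWsh_MCifngR (13.36 ± 1.10), and all of these neighbours overlapped.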

How the data were processed

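Per the submitters' processing notes, the authors made the deposited log2 values of 45101 probe sets with GCRMA (the version is not named). The method takes off background by probe sequence and quantile-normalises arrays, so low values come from its background model. No normalisation was added. GEO's platform annotation gave 34958 probe sets 1 gene symbol and 932 several, and left 9211 unnamed. The probe set of highest mean stood for a gene. Limma 3.58.1 (R 4.3.3) fitted 10 group means to 36 arrays (26 residual degrees of freedom), with two-sided Benjamini-Hochberg adjustment over 11599 genes. The 15 planned comparisons and 1 added one, the lists and the genes were chosen with earlier results of these data known. Genes were named by 3 rules, all listed genes, list genes with the count of their list, and the 3 genes with the highest r. The fit was checked on simulated data. Promoters are RefSeq's (GRCm38.p6), aligned with Biopython 1.88.

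The alternative settings tried were quantile normalisation, median centring, other filters, averaging all probe sets of a gene, a trended and robust variance, array weights, the compared groups alone, and leaving out arrays.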

Additional observations from a re-analysis of the deposited data

Results flagged for a closer look

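The 7 probe sets were checked in the 6 groups of 4 arrays for an array far from the rest (42 sets of 4 values), and 6 were found. Chance gives about 1 in 20 where values are not tied, which does not hold for the 3 found in Chit1. Retnla in KitWsh_MCifngR OVA array 1 was 11.28, far below the other 3 arrays at 14.56 to 14.84. The beta-actin gap of that array was 4.81, against 2.26 to 3.48 in the other 3. Its goblet cell list summed to 8.99, against 14.0 to 14.8 in the other 3 and 10.2 to 10.9 in KitWsh_MCifngR PBS arrays. Its club cell list summed to 16.9, against 16.8 to 17.1 in the other 3. These sums are a description, and what set the array apart was not tested. The probe set shared by Chil3 and Chil4 was 11.34 in KitWsh_MC OVA array 2, below the others at 14.08 to 14.56. That array had a beta-actin gap of 6.23, against 2.21 to 2.61 in the others, and a median r of 0.882 with the other arrays. The part of this gap in either value was not tested. Chil3 in WT PBS array 2 was 13.35, above the others at 13.13 to 13.17, a gap that is small in size. Chit1 was 4.32 in KitWsh OVA array 1, 4.11 in WT OVA array 4 and 2.82 in WT PBS array 1, where each time the other 3 arrays were tied at 3.54, under the filter, so that any other value would be found.

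The Chia1 response was larger in KitWsh_MC than in KitWsh mice by 1.99 on the log2 scale, which passed the test of that difference only without KitWsh_MCigeR PBS array 2.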

How the results depend on the processing

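The number of listed genes called was 5 for the mean response under every setting run. Chil4, which passes the filter only through its OVA arrays, is among these 5. With all arrays it was 2 in WT, 3 in KitWsh, 2 in KitWsh_MC, 0 in KitWsh_MCifngR and 5 in KitWsh_MCigeR mice, and 0 for the 3 response differences, the 4 challenged and the 3 unchallenged comparisons. Leaving out 1 array of the compared groups at a time gave 1 to 2 in WT, 0 to 3 in KitWsh, 2 to 2 in KitWsh_MC, 0 to 3 in KitWsh_MCifngR, 0 to 5 in KitWsh_MCigeR mice and 0 to 1 for KitWsh_MCifngR minus KitWsh_MC OVA lungs. Without KitWsh_MCigeR PBS array 2, an array outside most of these groups, the counts were 3 in WT, 5 in KitWsh_MC, 3 in KitWsh_MCifngR and 0 in KitWsh_MCigeR mice, and 1 for the KitWsh_MC minus KitWsh response, for the KitWsh_MC minus KitWsh, KitWsh_MCifngR minus KitWsh_MC and KitWsh_MCigeR minus KitWsh_MC OVA lungs and for each unchallenged comparison. Without that array, WT OVA array 4 and KitWsh_MCifngR OVA arrays 2 and 3 they were the same except for 5 in WT and 2 in KitWsh_MCifngR mice, with Retnla in place of Chil3 in KitWsh_MCifngR minus KitWsh_MC OVA lungs. That Retnla call rests on KitWsh_MCifngR OVA array 1, which this fit keeps.

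With array weights, where that array had a weight of 0.00884, the counts were 5 in WT, KitWsh, KitWsh_MC and KitWsh_MCifngR and 2 in KitWsh_MCigeR mice, 1, 2 and 1 for the response differences, 1, 1, 3 and 1 for the challenged comparisons (KitWsh minus WT first, then in the order above) and 2, 1 and 1 for the unchallenged ones. With the compared groups alone they were 4 in WT, 5 in KitWsh, 5 in KitWsh_MC and 0 in KitWsh_MCigeR mice, 1 for the first 2 response differences, 1 for KitWsh_MC minus KitWsh OVA lungs and 2, 1 and 2 for the unchallenged ones. Quantile normalisation gave 4 in KitWsh_MC and 1 in KitWsh_MCifngR mice and 1 for unchallenged KitWsh minus WT and KitWsh_MCifngR minus KitWsh_MC. Median centring gave 5 and 1, and 1 for KitWsh_MCifngR minus KitWsh_MC OVA lungs and for each unchallenged comparison. With no filter the counts were 1 in WT and 0 in KitWsh_MCigeR mice, as more genes entered the adjustment. Averaging all probe sets of a gene, they were 0 in KitWsh_MCigeR mice and 1 for unchallenged KitWsh_MCifngR minus KitWsh_MC. A filter at log2 6 and a trended, robust variance moved no count by over 1.5 times. The cause of the other changes was not tested.

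The direction turned for Retnla in KitWsh_MCifngR minus KitWsh_MC OVA lungs, to 0.0486 with array weights and to 0.10 without KitWsh_MCifngR OVA array 1, the top of a range from -1.08 when 1 array was left out at a time. The number of arrays limits the precision, and values near the GCRMA floor have no order.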
